A study of Oryza sativa with 16 samples.

Results

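OsHOX24, a homeodomain-leucine zipper transcription factor of rice, was mapped by ChIP-seq in 8 libraries, and 273 places in the genome carried a called binding summit in every one of them. They are called common regions here. They were found by pooling the summits of the 8 deposited lists on chromosomes 1 to 12 and joining summits that lay up to 200 bp from the previous one, which gave 16253 regions. The 273 common regions are 1.68% of these, and they were chosen from the calls themselves, so their presence in all lists is their definition and not a result. The seedlings were 3 weeks old and either desiccated or kept in water (control) for 3 h. The 4 groups were H49 desiccation, WT desiccation, H49 control and WT control, with 2 libraries each. H49 is 1 line that over-expresses OsHOX24 from a promoter not given in the sources used here. WT is wild-type rice, and both genotypes carry the endogenous gene, so no library comes from plants that lack it. The amount of OsHOX24 protein in each group was not measured here. Of the 16 samples, 8 are inputs (chromatin sequenced without antibody), which were not analysed here, and the level of these regions without the antibody is therefore not known. No label says that replicates are separate plants, and every p-value here therefore rests on a spread between libraries that may be technical.

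Homeodomain-leucine zipper proteins are found in plants. The homeodomain contacts DNA, and the adjacent leucine zipper joins a pair of the proteins, which bind a short AT-rich pseudopalindrome as a dimer. Members of subfamily I, to which OsHOX24 belongs, are known for roles in responses to water deficit and to abscisic acid. A ChIP-seq summit is the position in a peak at which the enrichment was highest, and marks where the bound site most probably lies.

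The deposited value of a summit is the −log10 of the p-value given by the authors' peak caller. It grows with the number of reads, which is unknown, and the median over the common regions ranged from 15.3 in WT desiccation replicate 1 to 91.7 in H49 control replicate 2. Values were therefore not used to compare treatments or genotypes, and where libraries are set side by side by value, read depth may enter. For comparisons, every region was instead placed among the common regions in each library. Its percentile is the percentage of the 273 whose value in the same library was lower, so that 100 is the strong end, and the same 273 serve in every library whatever the length of its list.

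The 3 strongest common regions shared the first places of the 8 lists. The summit at Chr9:21917161-21917191 (positions on the MSU version 7 rice genome) had the highest mean percentile, 99.3 on this scale, which ends at 100. Its −log10 p was 117 and 166 in H49 desiccation, 84.7 and 209 in WT desiccation, 91.6 and 413 in H49 control and 248 and 291 in WT control. It ranked between 1 and 4 in every whole list and led the lists of H49 control replicate 2 and WT control replicate 2. Chr3:5944571-5944632 had −log10 p of 152 and 271 in H49 desiccation, 137 and 456 in WT desiccation, 79.5 and 289 in H49 control and 335 and 230 in WT control. It led 5 lists, those of the 4 desiccation libraries and of WT control replicate 1, and ranked 10 and 7 in H49 control and 3 in WT control replicate 2. Chr12:1793414-1793452 led the remaining list, H49 control replicate 1, with a value of 105. Its other values were 90.004 and 162 in H49 desiccation, 63.3 and 126 in WT desiccation, 328 in H49 control replicate 2 and 220 and 194 in WT control. None of these 3 regions had another common region within 10 kb.

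The next places were held by Chr2:21656809-21656862, Chr2:21093562-21093612 and Chr6:28400735-28400756, with mean percentiles of 97.6, 97.3 and 96.2. The whole-list ranks of Chr2:21093562-21093612 were 11 and 24 in H49 desiccation and 8 and 6 in WT desiccation, against 9 and 2 in H49 control and 3 and 2 in WT control, and the treatments overlapped. Chr12:21960378-21960423 and Chr12:8557262-8557285 followed at 92.3 and 91.4. Chr1:36261933-36262061 averaged 90.2 but lay at the percentile of 59.9 in WT desiccation replicate 2, against 87.0 to 97.6 in the other 7 libraries. Chr6:28401445-28401496, with a mean of 90.1, lies 689 bp to the right of the other chromosome 6 region named here. It stood at 69.0 in H49 desiccation replicate 2 and 66.5 in WT desiccation replicate 2 and at 96.2 or above in the other 6 libraries, while its neighbour stayed at 91.4 or above in all 8. All of the 10 strongest regions of a list were common regions in 7 libraries, and 8 of the 10 were in WT desiccation replicate 2.

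**Figure D1:**
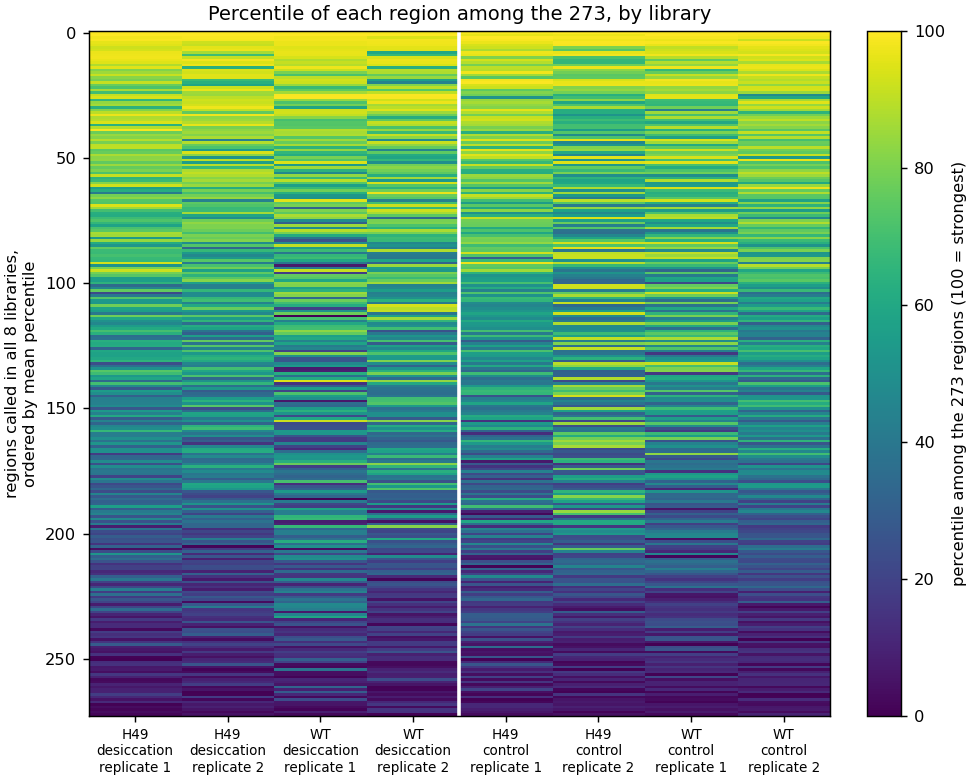
Percentile of each of the 273 common regions (rows, ordered by mean percentile) in each of the 8 libraries (columns, with a white line between the desiccation libraries on the left and the control libraries on the right), in percent of the common regions with a lower value. The top rows are yellow (near 100) in every column, as for the 9 regions above 75 in all 8 libraries, and the middle rows are mixed, with a median range over the libraries of 49.1 points for means of 25 to 50 and 49.3 points for 50 to 75.

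The order differed most between libraries in its middle. Over the 8 libraries the percentile of a common region had a median range of 39.2 points (quartiles 27.1 and 51.8, lowest 1.10, highest 81.9). By mean percentile the median range was 23.5 points up to 25, 49.1 from 25 to 50, 49.3 from 50 to 75 and 31.9 above 75, on a scale that leaves less room at both ends. There were 9 regions above 75 in all 8 libraries. They were the 7 with the highest means together with Chr4:27625328-27625357 and Chr11:6114192-6114214, both named after their values were seen. There were 21 regions below 25 in all 8. Among regions with a mean between 25 and 75, the steadiest were Chr1:2078371-2078546 and Chr2:32458413-32458538, with ranges of 18.7 and 19.4 points around means of 26.2 and 25.6. Chr3:26607184-26607200 with a mean of 73.9, Chr6:12516813-12516833 with 53.8 and Chr3:10900368-10900400 with 55.3 ranged over 22.0, 22.0 and 22.7 points.

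The most variable regions of that middle part differed in which libraries set the range. Chr6:12506397-12506492 had the widest range of all, 81.9 points. Its percentiles were 51.5 and 70.9 in H49 desiccation, 7.14 and 84.8 in WT desiccation, 75.6 and 66.8 in H49 control and 67.2 and 89.0 in WT control. The 2 WT desiccation libraries thus lay near opposite ends. Chr1:41486949-41487105, with a range of 79.5 points, had a −log10 p of 3.10 in WT desiccation replicate 1, close to the lowest value that its list holds, against 27.02 to 93.2 in the other 7 libraries. Chr5:11896361-11896429 stood at 66.8 and 81.9 in WT desiccation, against 8.06 and 33.0 in H49 desiccation, 12.5 and 15.6 in H49 control and 27.7 and 17.0 in WT control. Both of its WT desiccation libraries lay above all the others. Chr3:9242127-9242439 was highest in H49 control replicate 2, at 84.4, and at 46.7 or below in the other 7. Chr3:12909549-12909582 is described with the treatments.

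The level of −log10 p over the common regions differed between the replicates of every group. The median of the 273 values was 28.6 and 40.8 in H49 desiccation, 15.3 and 60.4 in WT desiccation, 25.9 and 91.7 in H49 control and 50.1 and 76.2 in WT control. In each of the 4 groups the library numbered 2 had the higher median. The regions that were higher in the library numbered 2 were 192 of 273 in H49 desiccation, 227 in WT desiccation, 251 in H49 control and 159 in WT control. The labels do not say what the replicate numbers stand for, and the part of read depth, which is unknown, was not tested. WT desiccation replicate 1 held the weakest of the 8 values for 175 of the 273 regions, and the next most frequent library, WT desiccation replicate 2, for 27.

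**Figure D2:**
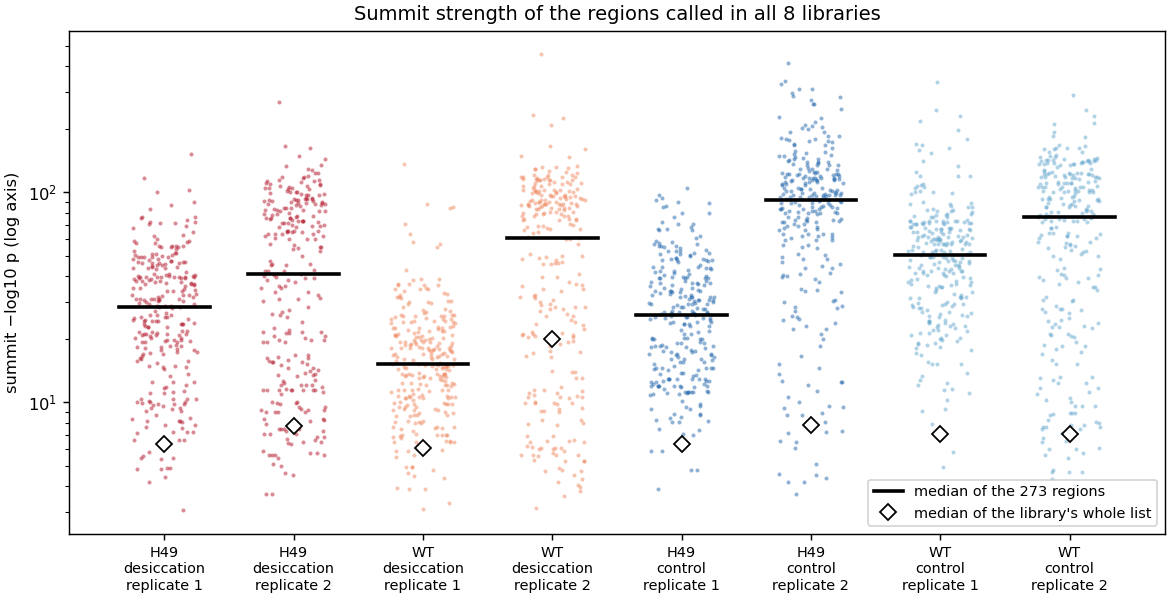
−log10 p of the highest summit of each of the 273 common regions (points) in each of the 8 libraries, on a log axis, with a black line at their median and a diamond at the median of the whole list. The medians of the common regions run from 15.3 in WT desiccation replicate 1 to 91.7 in H49 control replicate 2, and lie above the median of the whole list in every library.

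The shape of the distribution also differed by library. In the 4 libraries numbered 2, few regions had values from 20 to 60, with 56 in H49 desiccation, 56 in WT desiccation, 44 in H49 control and 55 in WT control. The libraries numbered 1 held 157, 80, 144 and 142 regions in that band, in the same order of groups. Values of 60 or more were found for 117, 138, 196 and 160 regions in the libraries numbered 2, and for 22, 6, 21 and 102 in those numbered 1. The limits of 20 and 60 were chosen after the values were seen, and these counts also depend on the unknown read depth.

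The common regions stood high in their own lists. Their median percentile within the whole list was 90.2 and 90.7 in H49 desiccation, 93.9 and 88.2 in WT desiccation, 94.7 and 95.1 in H49 control and 97.8 and 93.9 in WT control. These whole-list percentiles depend on how many weak summits a list holds. In WT desiccation replicate 2, the shortest list with 2193 summits, 79 common regions (28.9%) fell below the median of the list. In WT control replicate 1, the longest with 9348 summits, 2 did. The list of WT desiccation replicate 2 also stood apart in its own level, since the median −log10 p of all its summits on chromosomes 1 to 12 was 20.1, against 6.10 to 7.81 in the other 7. Read from regions called in 1 list to those called in all 8, the median of a region's mean whole-list percentile was 35.5, 45.2, 49.8, 52.5, 56.7, 59.8, 73.7 and 91.8. A strong summit is easier to call in each list, so this order is part of how the regions were chosen.

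Replicates of a group ordered the common regions about as much alike as libraries of different groups did. Spearman's rho over the 273 values averaged 0.743 ± 0.0866 (SD) for the 4 pairs of replicates and 0.725 ± 0.115 for the 24 other pairs, and each pair shares the same regions. The highest rho, 0.907, was between H49 desiccation replicate 2 and WT control replicate 2. The next, 0.898, was between H49 desiccation replicate 2 and WT desiccation replicate 2. The lowest, 0.478, was between WT desiccation replicate 2 and H49 control replicate 2. H49 control replicate 2 stood at 0.812 with WT control replicate 1, a library of the other genotype and the same treatment.

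The summits of the 8 libraries fell close together within a common region. The rule sets this in part, because it joins only summits up to 200 bp from the previous one. The distance between the leftmost and the rightmost of the 8 highest summits had a median of 66 bp (quartiles 34 and 129 bp, lowest 3 bp, highest 751 bp). It was at most 50 bp in 110 regions (40.3%) and above 200 bp in 45 (16.5%). In 268 regions each library had exactly 1 summit. The other 5 were Chr1:31408042-31408596, Chr2:31071846-31072326, Chr4:30937742-30938493, Chr5:24450173-24450751 and Chr6:5045966-5046336, which were named after their values were seen. They include the widest of all, and their mean percentiles lay between 8.29 and 19.0. Regions above 200 bp can be formed only by chains of summits, because summits are joined when they lie up to 200 bp from the previous one.

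The tightest region was Chr4:32929143-32929146, whose 8 summits lay within 3 bp. Its −log10 p was 36.5 and 98.8 in H49 desiccation, 22.4 and 112 in WT desiccation, 26.5 and 89.1 in H49 control and 66.8 and 121 in WT control. Chr1:7917593-7917597 followed with 4 bp, Chr12:13404792-13404800 with 8 bp, Chr12:20678587-20678597 with 10 bp and Chr6:12202348-12202359 with 11 bp. All 5 had mean percentiles from 62.1 to 82.4. The widest regions with 1 summit per library were Chr4:34979416-34979937 with 521 bp, Chr3:4658866-4659352 with 486 bp, Chr6:25903751-25904198 with 447 bp, Chr8:3656672-3657104 with 432 bp and Chr1:40372913-40373316 with 403 bp. Their mean percentiles were from 6.73 to 17.9. At Chr4:34979416-34979937 the −log10 p was 7.13 and 8.32 in H49 desiccation, 17.8 and 6.05 in WT desiccation, 16.04 and 9.38 in H49 control and 22.7 and 6.76 in WT control.

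The spread of summit positions was thus wider in weaker regions. Over the 273 regions, Spearman's rho between the mean percentile and the range of the 8 summit positions was −0.655, given as a description since all regions share the same libraries. For the 60 regions with a mean percentile up to 25, the median range was 232 bp and 50 of them (83.3%) exceeded 100 bp. In the next bands, of 71, 88 and 54 regions, the median was 66, 46.5 and 34 bp and the share above 100 bp was 28.2%, 18.2% and 3.70%. The 2 regions above 100 bp in the top band include Chr1:36261933-36262061, with a range of 128 bp.

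**Figure D3:**
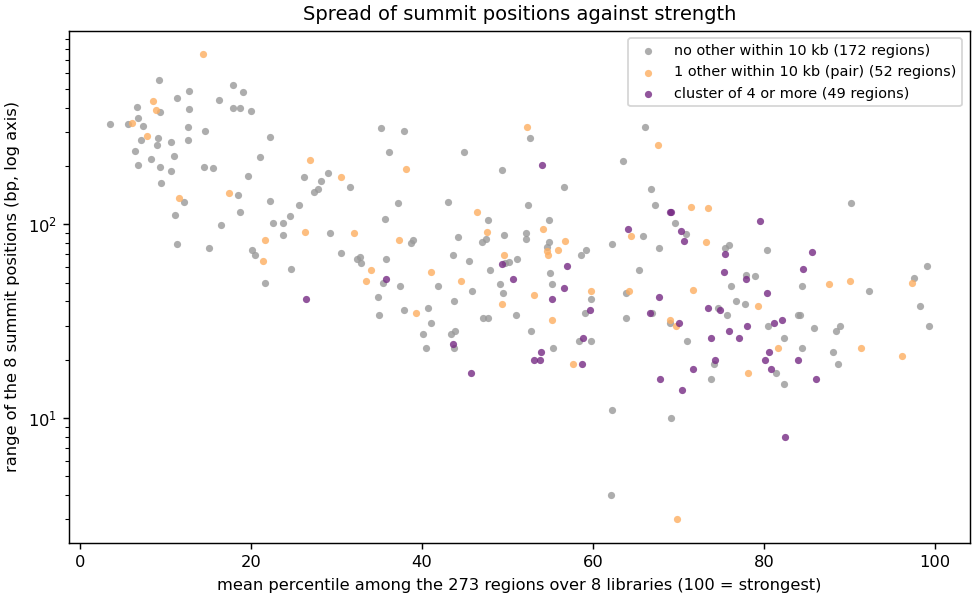
Range of the 8 summit positions (bp, log axis) against the mean percentile over the 8 libraries for the 273 common regions, coloured by whether a region had no other common region within 10 kb (172), formed a pair (52) or lay in a cluster of at least 4 (49). The points fall to the right, from a median of 232 bp in the weakest band to 34 bp in the strongest, and the cluster points lie in the lower right with a median of 35 bp.

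Each library's summits were centred on the same positions. The median signed offset from the region's median summit was between −1 and 1.5 bp in the 8 libraries. That median is taken over the same 8 summits, so signed offsets near it are partly built in. The median absolute offset was 12 and 12 bp for H49 desiccation, 13 and 17.5 bp for WT desiccation, 11 and 9.5 bp for H49 control and 10.5 and 10 bp for WT control. It averaged 13.6 ± 2.63 bp over the desiccation libraries and 10.3 ± 0.646 bp over the control libraries (SD, n = 4 each), and every desiccation library lay above every control library. By genotype the averages were 11.1 ± 1.18 bp in H49 and 12.8 ± 3.43 bp in WT (SD, n = 4 each), and these libraries overlapped. The 4 desiccation lists, with 2193 to 2691 summits, are also shorter than the 4 control lists, with 3176 to 9348, and the part of list length or read depth in the offsets was not tested. Between replicates of a group the median distance of the highest summits was 17 to 26 bp, and between libraries of different groups it was 14 to 27 bp.

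Many common regions lay in company. Of the 273, 101 (37.0%) had another common region within 10 kb and 32 (11.7%) had one within 1 kb. The 261 gaps between neighbours on a chromosome had a median of 524 kb, with a lower quartile of 8.04 kb and an upper quartile of 1.59 Mb. Regions called in exactly 7 lists had a median gap of 611 kb and a lower quartile of 52.6 kb. The widest gap, 11.8 Mb, was on chromosome 10. Joined at 10 kb, the common regions formed 204 loci, of which 172 were single regions, 26 were pairs and 6 were clusters of 4 to 15. Closely set regions may hold summits of 1 broad peak, since the lists give no peak widths.

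The closest pair, Chr3:13644624-13644739 and Chr3:13645158-13645210, was separated by 419 bp. Its left region had a mean percentile of 69.0 and its right one 78.0, and both belong to a cluster. Chr12:21600162-21600208 and Chr12:21600697-21600736 were separated by 489 bp, and Chr1:39127157-39127189 and Chr1:39127728-39127930 by 539 bp. Chr9:4675150-4675207 and Chr9:4675755-4675948 followed with 548 bp, and Chr12:13408231-13408275 and Chr12:13408837-13408859 with 562 bp. The Chr9 neighbours had like mean percentiles, 41.1 and 38.1, and those of the 562 bp pair 80.4 and 53.9. The left region of this chromosome 12 pair had −log10 p of 55.5 and 97.5 in H49 desiccation, 20.7 and 95.9 in WT desiccation, 66.5 and 116 in H49 control and 64.9 and 143 in WT control. The right region had 32.1 and 47.3 in H49 desiccation, 24.96 and 92.2 in WT desiccation, 28.4 and 76.6 in H49 control and 23.6 and 86.0 in WT control. The left region was higher in every library except WT desiccation replicate 1.

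The 6 clusters of 4 or more, a minimum set after the data were seen, held 49 common regions (17.9%) within 115 kb, which is 0.0310% of the length of the chromosomes. They also held 24 of the 213 regions called in 7 lists (11.3%) and 0.800% of all regions. The clusters were drawn around closely set common regions, so a high share of these in a short length follows from that and is not a result. On chromosome 12 a cluster of 15 common regions covered Chr12:13371754-13410575 (38.8 kb) and one of 4 covered Chr12:13342467-13358094. They lie 13.7 kb apart, so that 19 common regions stood in 68.1 kb. The cluster at Chr6:12506397-12536018 held 11 in 29.6 kb. Those at Chr1:39111743-39127930 and Chr3:13641036-13647918 held 7 each, in 16.2 and 6.88 kb, and the one at Chr4:32872845-32881117 held 5 in 8.27 kb.

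**Figure D4:**
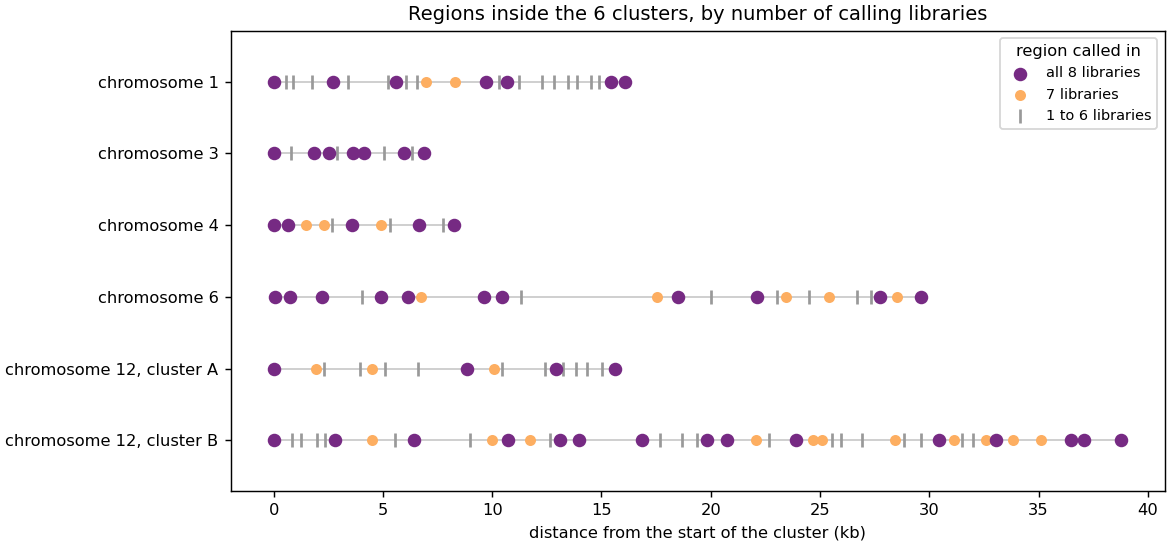
Position of every merged region in the 6 clusters, as the distance from the start of the cluster (kb), for regions called in all 8 libraries, in 7 and in 1 to 6. Cluster B of chromosome 12, the large one, holds 15 regions called in all 8 and 11 called in 7 among 44 regions, and the chromosome 3 cluster 7 called in all 8 among 11.

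Regions in the clusters were on average stronger than single ones. Their mean percentile was 67.6 (26.5 to 86.1 over the 49 regions), against 50.9 in pairs and 44.7 in single regions. None of the 49 had a mean below 25, which 51 of the 172 single regions (29.7%) had, and the median range of their 8 summits was 35 bp, against 77 bp in single regions. In the libraries, the median −log10 p of cluster regions was 39.6 and 83.4 in H49 desiccation, 20.5 and 99.5 in WT desiccation, 39.3 and 100.4 in H49 control and 58.4 and 118 in WT control. For single regions it was 21.1 and 21.6 in H49 desiccation, 14.7 and 30.4 in WT desiccation, 20.2 and 85.9 in H49 control and 43.5 and 55.3 in WT control. Cluster regions had the higher median in all 8 libraries. The clusters did not hold the top of the order, since none of the 10 regions with the highest mean percentile lay in one.

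The mean percentiles of the clusters were 75.9 for the chromosome 1 cluster, 65.8 for chromosome 3, 66.7 for chromosome 4, 64.8 for chromosome 6 and 67.2 and 67.1 for the small and the large chromosome 12 cluster. In the large chromosome 12 cluster the mean percentile averaged 73.0 ± 4.44 in the desiccation libraries and 61.3 ± 10.8 in the control libraries (SD, n = 4 each). It was 74.1 and 73.6 in H49 desiccation, 66.9 and 77.4 in WT desiccation, 69.0 and 52.8 in H49 control and 51.1 and 72.2 in WT control, so the treatments overlapped. In the chromosome 6 cluster it averaged 64.4 ± 7.92 in the desiccation libraries and 65.2 ± 5.99 in the control libraries (SD, n = 4 each). Over all 49 cluster regions it averaged 70.8 ± 6.01 in desiccation and 64.5 ± 8.05 in control libraries, which overlapped, and 67.8 ± 7.02 in H49 and 67.5 ± 8.82 in WT libraries (SD, n = 4 each).

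The common regions were spread unevenly over the chromosomes. Chromosome 12 held 40 of them (14.7%), beside 4.37% of all regions and 7.36% of the length, and 5.63% of its regions were common, the highest share of any chromosome. Of the 213 regions called in 7 lists, 27 (12.7%) were also on chromosome 12. The clusters account for 19 of the 40, and the other 21 lay at 19 separate loci. Chromosome 12 regions had a mean percentile of 69.3 ± 2.50 in the desiccation libraries and 62.7 ± 4.87 in the control libraries (SD, n = 4 each), against 46.7 and 47.8 for the regions of the other chromosomes. The treatments overlapped on chromosome 12. At the other end, chromosome 10 held 5 common regions (1.83%) beside 5.67% of all regions, and chromosome 7 held 8 (2.93%) beside 6.12%. Of the regions called in 7 lists, 10 (4.7%) were on chromosome 10 and 13 (6.1%) on chromosome 7. All 8 common regions on chromosome 7 lay in the last 30% of its length. Over all chromosomes together, that part held 49.03% of all regions, and the share for chromosome 7 alone is not given here. Chromosome 1 held the most, 49 (17.9%), close to its 17.7% of all regions.

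**Figure D5:**
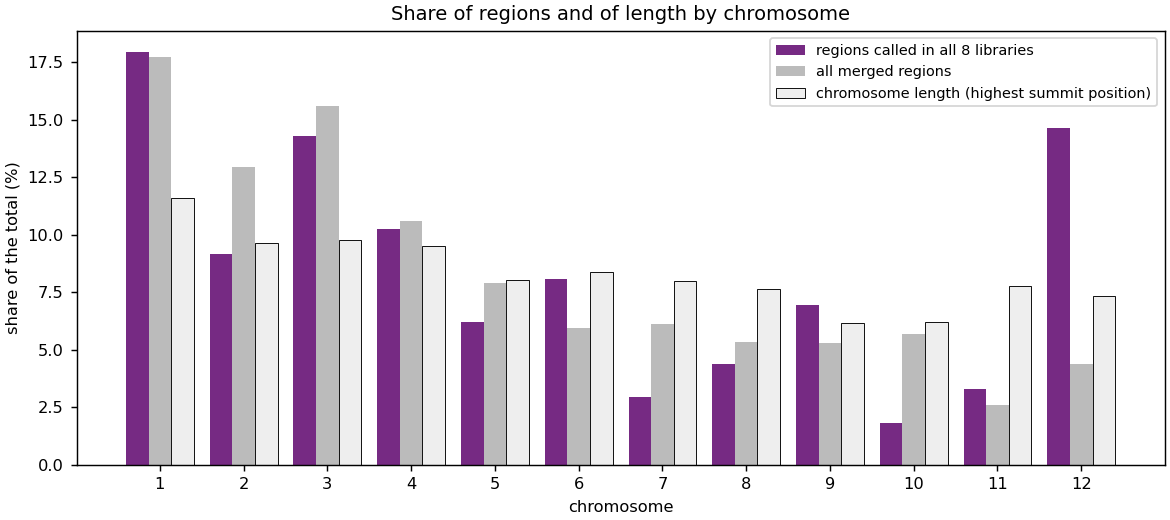
Share (%) of the 273 common regions, of all 16253 merged regions and of the chromosome length, taken as the highest summit position, for chromosomes 1 to 12. Chromosome 12 holds 14.7% of the common regions beside 4.37% of all regions, and chromosome 10 holds 1.83% beside 5.67%.

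The common regions were unevenly placed along the chromosomes. With each chromosome cut into 10 equal parts from the start to the end, they numbered 16, 19, 20, 24, 45, 14, 11, 33, 43 and 48. The fifth of these parts stood out with 16.5% of the common regions beside 4.85% of all regions, and 30 of its 45 regions belong to clusters. Without the clusters the counts were 16, 19, 20, 17, 15, 14, 11, 33, 43 and 36. The last 3 parts held 45.4% of the common regions, beside 49.03% of all regions. This share varied by chromosome, with 12 of 39 common regions there on chromosome 3, 5 of 22 on chromosome 6, 10 of 40 on chromosome 12, 31 of 49 on chromosome 1 and 19 of 28 on chromosome 4.

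Desiccation and control libraries were compared to ask whether the place of a common region in the order moved with the treatment. Percentiles were tested with limma over 536 regions called in at least 3 of the 4 libraries on each side, with Benjamini-Hochberg adjustment over all of them. Libraries that did not call a region were dropped from its fit, which concerns no common region. At an adjusted p of 0.05, 0 of the 273 common regions passed, and percent called over all 536 was 0. The lowest adjusted p of a common region was 0.130. At an unadjusted p of 0.05, 39 common regions (14.3%) were below, 20 higher and 19 lower in desiccation, beside 12.3% of all regions tested. The difference of desiccation minus control had a median of 1.01 points over the common regions (−33.6 to 40.1), beside 2.89 over all regions tested, and a median SE of 8.43 points. This was the precision at which shifts could be seen.

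In 5 common regions (1.83%) all 4 desiccation libraries lay above all 4 control libraries, beside 4.48% of all regions tested, counted over the libraries that called them. The percentages over all regions tested include 263 regions with 1 or 2 libraries missing, where fewer values have to separate. Chr3:12909549-12909582 had the widest difference. Its percentiles were 44.7 and 50.4 in H49 desiccation, 92.1 and 81.9 in WT desiccation, 14.8 and 21.4 in H49 control and 44.1 and 28.2 in WT control. The difference was 40.1 points (SE 6.75, limma adjusted p = 0.130). Chr1:4095994-4096019 stood at 78.2 and 60.6 in H49 desiccation and 62.1 and 93.6 in WT desiccation, against 45.6 and 34.2 in H49 control and 37.9 and 54.8 in WT control. Its difference was 30.5 points (SE 8.46, limma adjusted p = 0.312). Chr11:24970895-24971211 was weak in every library, with 28.6 and 19.96 in H49 desiccation and 22.0 and 17.0 in WT desiccation, against 5.31 and 3.48 in H49 control and 0.183 and 4.95 in WT control. The difference was 18.4 points (SE 4.65, limma adjusted p = 0.312). It was the weakest of all 273 in WT control replicate 1.

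In another 5 regions (1.83%) all 4 desiccation libraries lay below all 4 control libraries, beside 2.24% of all regions tested, again over the called libraries. Chr5:21698152-21698233 had percentiles of 32.1 and 32.4 in H49 desiccation and 22.9 and 33.5 in WT desiccation, against 54.4 and 84.8 in H49 control and 73.4 and 42.7 in WT control. The difference was −33.6 points (SE 9.04, limma adjusted p = 0.312). The 4 desiccation libraries lay close together and the 4 control libraries were scattered. Chr6:26384828-26384954 stood at 61.4 and 48.9 in H49 desiccation and 48.2 and 46.3 in WT desiccation, against 83.3 and 93.6 in H49 control and 93.2 and 63.2 in WT control. Its difference was −32.1 points (SE 7.37, limma adjusted p = 0.312). Chr12:24091134-24091198 had 47.1 and 36.8 in H49 desiccation and 29.1 and 42.3 in WT desiccation, against 52.9 and 86.3 in H49 control and 50.7 and 56.6 in WT control. Its difference was −22.8 points (SE 8.08, limma adjusted p = 0.336), and −15.2 without H49 control replicate 2. None of the 10 regions whose treatments did not overlap passed the test, and these counts grew to as many as 17 higher and 22 lower when WT control replicate 2 was left out. The shares over all regions tested were not computed without that library.

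H49 and WT libraries were compared to ask whether over-expression went with another order. Again 0 of the 273 passed at an adjusted p of 0.05 (limma, percent called over all 536 regions 0), with a lowest adjusted p of 0.400. At an unadjusted p of 0.05 there were 17 (6.23%), 8 higher and 9 lower in H49, beside 4.48% of all regions tested. The median difference of H49 minus WT was −0.18 points (−36.2 to 32.1). All 4 H49 libraries lay above all 4 WT libraries in 2 regions (0.733%) and below them in 4 (1.47%). Over the called libraries of all regions tested these shares were 0.746% and 2.05%. Without H49 control replicate 2 the counts of common regions were 9 and 14, and the shares over all regions tested were not computed.

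Of the 2 that were higher in H49, Chr9:1530734-1530990 stood at 84.1 and 81.1 in H49 desiccation and 78.6 and 73.4 in H49 control, against 24.7 and 67.2 in WT desiccation and 63.2 and 68.3 in WT control. Its difference was 23.4 points (SE 9.90, limma adjusted p = 0.994), and 12.3 without WT desiccation replicate 1. It was 36.6 within desiccation and 10.3 within control. Chr6:12507129-12507155, in the chromosome 6 cluster, had 73.1 and 66.5 in H49 desiccation and 67.2 and 65.0 in H49 control, against 34.6 and 51.5 in WT desiccation and 52.6 and 60.3 in WT control. Its difference was 18.2 points (SE 6.23, limma adjusted p = 0.877), and 9.71 within control. In both, the lowest library was WT desiccation replicate 1.

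On the lower side, Chr11:21260580-21260649 had percentiles of 17.6 and 38.3 in H49 desiccation and 23.3 and 22.9 in H49 control, against 50.4 and 44.1 in WT desiccation and 82.97 and 69.4 in WT control. The difference was −36.2 points (SE 8.59, limma adjusted p = 0.400), and −19.3 within desiccation. Chr12:8560076-8560106 stood at 61.7 and 59.2 in H49 desiccation and 63.6 and 55.9 in H49 control, against 87.4 and 74.7 in WT desiccation and 87.0 and 68.7 in WT control. Its difference was −19.4 points (SE 5.94, limma adjusted p = 0.819), and it is the neighbour of Chr12:8557262-8557285, which stood at 74.2 or above in all 8 libraries. Chr12:3437666-3437777 was near the bottom of the order, at 0.183 and 10.4 in H49 desiccation and 0.733 and 9.71 in H49 control, against 30.2 and 12.6 in WT desiccation and 12.3 and 13.004 in WT control. Its difference was −11.8 points (SE 5.95, limma adjusted p = 0.994), −7.38 without WT desiccation replicate 1 and −7.42 within control. No region passed the test of whether the difference between desiccation and control was unlike in H49 and WT. There, 0 of 273 passed at an adjusted p of 0.05 (limma, percent called 0) and 11 (4.03%) were below an unadjusted p of 0.05, beside 2.8% of all regions tested.

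Some regions lay close to the limit of the rule that picks the common regions. Just inside it, Chr3:4658866-4659352 was called in WT control replicate 2 with a −log10 p of 3.05, Chr12:3437666-3437777 in H49 desiccation replicate 1 with 3.07 and Chr1:41486949-41487105 in WT desiccation replicate 1 with 3.10. Chr9:12215920-12216248 followed with 3.12 in WT desiccation replicate 2 and has the lowest mean percentile of all, 3.55, and Chr11:11187547-11187783 with 3.33 in WT desiccation replicate 1. The lowest value in the lists is between 3.00 and 3.02. The weakest of the 8 values was below 5 in 33 common regions (12.1%) and above 20 in 77 (28.2%).

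Just outside, 213 regions were called in 7 lists. The missing list was WT desiccation replicate 1 for 79 of them, WT desiccation replicate 2 for 50, H49 desiccation replicate 2 for 27 and one of the other 5 for the rest. Chr1:39198234-39198266 was the strongest, with a mean percentile of 86.9 over the 7 libraries that called it, values of 47.9 to 143 and no summit in WT desiccation replicate 1. Chr12:13381752-13381774, inside the large chromosome 12 cluster, had a mean of 82.7 and no summit in WT desiccation replicate 2. Chr1:18683748-18683777, Chr12:13400151-13400174 and Chr9:16354330-16354358 had means of 80.4, 79.3 and 77.8 and lacked WT desiccation replicate 1. A summit missing from a list was not called there, which does not show that the site was unbound.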

How the data were processed

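Each of the 8 ChIP libraries has its own summit list, on the rice genome sequence MSU version 7. Per the series' design text, the authors used NGS QC Toolkit to filter reads, Bowtie2 to map them and MACS2 to call peaks. The submitters' processing notes name MACS2 2.1.1.20160309. It is not stated in those texts whether inputs served as background or a Bedops step shaped the lists. The deposited value is the −log10 p that the authors' peak caller gave each summit, a unit read from the format of such lists and from their lowest values of 3.00 to 3.02. The lists hold 29740 summits, of which 29684 on chromosomes 1 to 12 were used. Read depth is unknown, so no counting interval was given.

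Summits were merged at 200 bp, and the highest summit of a library stood for it. The percentile of a region is the percentage of the 273 common regions with a lower value in that library, ties counted as 0.5. Treatment and genotype were fitted together, and their interaction in a further model, with limma 3.58.1 in R 4.3.3 and Benjamini-Hochberg adjustment over 536 regions. The fit was also run on simulated data, whose outcome is not given here, and nothing is read from that run. Other steps used Python 3.11.15. The regions and the choices of test were made with earlier results of these data known. Named regions are the extremes of each measure (up to 10 by mean percentile, 5 by range, spread of summits, closeness and nearness to the rule's limit, 3 per direction among those whose groups do not overlap), unless said otherwise. Alternatives were other merge distances, value limits, filters, a block for the replicate number and leaving out each library. No genome or annotation of this version was used, so no gene names or sequences are given.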

Additional observations from a re-analysis of the deposited data

Results flagged for a closer look

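The median distance of a library's summits from the region's median summit was 17.5 bp in WT desiccation replicate 2, farther from the other 7 libraries (9.5 to 13 bp) than Dixon's 95% limit allows. It was the only such value in 30 groups of values looked at. Chance gives about 1 in 20, so 1 in 30 is not above that rate, and the groups share libraries.

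At Chr1:41486949-41487105 both H49 desiccation libraries lay above both H49 control libraries, by 25.3 points on average, and both WT desiccation libraries lay below both WT control libraries, by −41.4 points. The difference between these shifts was 66.7 points (SE 24.8, limma adjusted p = 0.994), which did not pass. The percentile was 0.183 in WT desiccation replicate 1 and 57.7 in WT desiccation replicate 2, so 1 library sets most of the WT shift.

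At Chr6:25903751-25904198 the shift of desiccation minus control was −16.03 points in H49 and 2.11 points in WT, with no overlap in either genotype. The WT percentiles were 12.8 and 13.2 in desiccation against 9.52 and 12.3 in control, so they were barely apart. The region was near the bottom of the order, with a mean percentile of 11.3 and summits spread over 447 bp. The difference between the shifts was −18.1 points (SE 10.98, limma adjusted p = 0.994), which did not pass. Opposite shifts are given here only for regions already named for other measures. Their share among all common regions is not given, so whether they are more frequent than by chance was not tested.

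Among summits not placed on chromosomes 1 to 12, a region on ChrUn at positions 103212 to 103243 was called in all 8 lists. Its −log10 p had a median of 73.9, with 73.5 and 110 in H49 desiccation, 20.8 and 74.4 in WT desiccation, 45.0 and 97.4 in H49 control and 61.8 and 184 in WT control. It would stand above 55.3% to 97.4% of the 273 common regions, depending on the library. ChrUn was outside the rule that chose them.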

How the results depend on the processing

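The number of regions with a summit of every list was 273, and 242 with a merge distance of 100 bp, 326 with 500 bp, 240 with values of at least 5, 190 with the upper 50% of each list and 246 with equally many summits per list. Leaving out 1 list at a time gave 277 to 351, with 351 without WT desiccation replicate 1. With the upper 50% of each list, the share of common regions with a neighbour within 10 kb was 43.7% and the share on chromosome 12 was 20.5%; leaving out each library in turn gave 34.95% to 41.6% and 13.04% to 16.8%. The mean of the median summit offset was 10.6 to 11.7 bp with 1 library left out.

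The tests called 0 common regions under all 16 alternatives for treatment, 16 for genotype and 14 for the interaction, and lowest adjusted p-values were 0.0960 to 0.713, 0.169 to 1 and 0.0985 to 0.997 (limma). With the replicate block the count was 0 in all 3, with 43, 19 and 16 below an unadjusted p of 0.05. Same-numbered libraries deviated together, with a correlation above 0.1, in 3 of 6 pairs of groups, those without H49 control (0.225 to 0.420). In the pairs with H49 control the correlation was negative (−0.385 to −0.150). The numbers were therefore not taken as pairing. The 176 differences recomputed for named regions all kept their direction. These regions were named because their groups did not overlap, so leaving out libraries could not reverse it. Several differences changed in size by over 1.5 times. On the percentile within the whole list, that of Chr3:12909549-12909582 was 4.35 points against 40.1 and that of Chr1:4095994-4096019 was 1.51 against 30.5.

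Counts of regions whose 4 against 4 libraries do not overlap depended on single libraries. They were 7 to 17 higher and 6 to 22 lower in desiccation, and 2 to 9 higher and 4 to 14 lower in H49, when 1 library was left out, which leaves fewer values to separate. These counts cover the common regions only. Shares over all regions tested were not computed with a library left out, so nothing particular to the common regions is read from them. Those higher in desiccation were 14 without H49 desiccation replicate 1, 11 without H49 desiccation replicate 2, 12 without WT desiccation replicate 1, 17 without H49 control replicate 1, 8 without WT control replicate 1 and 17 without WT control replicate 2. Those lower were 12, 10, 12, 12 without the first 4 of these libraries, 8 without WT desiccation replicate 2 and 22 without WT control replicate 2. Those higher in H49 were 4 and 8 without H49 desiccation replicate 1 and 2, 9 without H49 control replicate 2 and 5 without either WT control replicate. Those lower in H49 were 12 without H49 desiccation replicate 2, 14 without H49 control replicate 2 and 9 without WT control replicate 2. On the percentile within the whole list, where list length enters, 0 were higher and 36 lower in desiccation, and 0 were higher in H49. On the percentile among the common regions, 5 were higher and 5 lower in desiccation. Every desiccation list is shorter than every control list, and the part of list length in the whole-list counts was not tested. Shares over all regions tested were not computed on that scale, so whether these counts are particular to the common regions was not tested. The planned search for the homeodomain-leucine zipper motif was not run, because no genome of this version was used.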

Other observations

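The 56 summits outside chromosomes 1 to 12 formed 36 regions, of which 29 were called in 1 library, and a list held 1 to 21 such summits. On ChrUn, besides the region called in all 8 lists, another at positions 107078 to 107087 was called in 7.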
